A study of Homo sapiens with 8 samples.

Results

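The FOXO factors and the PI3K-AKT axis were examined in lymphoma cells treated with chidamide, an inhibitor of histone deacetylases (HDACs). The 8 genes were chosen by name out of 63967 gene labels: the transcription factors FOXO1, FOXO3 and FOXO4, the kinases AKT1 and AKT2, the phosphoinositide 3-kinase (PI3K) subunits PIK3CD and PIK3R1, and the PI3K inhibitor PIK3IP1. All 8 were found, and all 8 were among the 10710 genes that were tested.

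RNA-seq was performed on Raji, a human Burkitt lymphoma cell line that is sensitive to the anti-CD20 antibody rituximab, and on Raji-4RH, a resistant line raised from it through repeated rituximab exposure. Each line received either the solvent DMSO or 3 μM chidamide over 24 h, which gave 4 groups of 2 libraries (8 in all, with the DMSO groups called untreated), from cells collected by flow sorting after 2-3 passages. Raji-4RH stands for rituximab resistance as 1 line beside 1 parental line, and how many clones it holds is not given in the sources used here. The labels do not say whether the 2 libraries of a group came from separate cultures, so p-values measure only the spread between these libraries, which may be technical.

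In B cells, PI3K is switched on by antigen receptors and coreceptors and makes the membrane lipid that recruits AKT. AKT phosphorylates FOXO proteins, which are then bound by 14-3-3 proteins and kept out of the nucleus; when AKT is inactive, FOXO proteins enter the nucleus and switch on genes of cell cycle arrest, stress resistance, autophagy and cell death. RNA levels show how much transcript each component has and say nothing of phosphorylation or of where the FOXO protein is.

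Total reads counted to genes, recovered from the deposited values, ranged from 13991697 to 21193441 per library. The lowest total belonged to Raji-4RH chidamide replicate 1. The deposited values are FPKM, reads divided by gene length and by the library total, so levels can be compared between genes. Values of many genes stood some rows below their labels (3 rows for FOXO1, 7 for FOXO4, 1 for AKT1 and PIK3R1, 5 for PIK3CD and none for FOXO3, AKT2 and PIK3IP1), and each gene was given the values of its own row. All 5 B cell markers (CD22, CD79A, CD79B, PAX5 and MS4A1) were above 1 FPKM in all 4 groups. Their summed level was 993 to 1027 FPKM in untreated and 883 to 893 in treated Raji, and 680.2 to 719 in untreated and 548 to 569 in treated Raji-4RH. With chidamide 3 of the 5 rose and 2 fell in Raji-4RH (median log2 fold change 0.23), and 2 rose and 1 fell in Raji (median 0.18). The sum of 4 T cell markers was at most 0.0782 FPKM in untreated and 1.05 in treated Raji, and 0.891 in untreated and 4.89 in treated Raji-4RH, and that of 4 myeloid markers 1.09, 7.64, 1.11 and 9.06. CD3D, CD3G and CD14 stayed under the level needed for testing, and 3 NK cell markers summed to at most 0.205 FPKM. The sum of 3 plasma cell markers was 34.2 FPKM in untreated and 31.04 to 31.6 in treated Raji, and 20.4 in untreated and 30.6 to 34.97 in treated Raji-4RH, where both tested ones rose. The part of these transcripts in the results was not tested.

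In GENCODE release 29 on GRCh38 the 8 genes are protein-coding and lie at chr13:40469953-40666597 (FOXO1), chr6:108559835-108684774 (FOXO3), chrX:71096197-71103535 (FOXO4), chr14:104769349-104795751 (AKT1), chr19:40230317-40285536 (AKT2), chr1:9651732-9729114 (PIK3CD), chr5:68215720-68301821 (PIK3R1) and chr22:31281593-31292534 (PIK3IP1). Promoter sequences are shown for 4 of the 8 genes, picked as genes that responded to chidamide and differ in the motifs they hold. They include both promoters with the forkhead motif given below. FOXO3 also responded but is not shown, and its 4 annotated promoters lack that motif. Each is the RefSeq sequence of GRCh38.p14 from 250 bases before to 50 after an annotated transcription start, 300 bases in all, written in the direction of transcription. Capitals mark motifs found on either strand, of which the first is the GC box, spelled GGGCGG. The next is the CCAAT box, and the last is the forkhead motif preferred by FOXO proteins, spelled GTAAACA. The FOXO1 promoter lies at chr13:40666592-40666891 (minus strand), FOXO4 at chrX:71095601-71095900 (plus), AKT1 at chr14:104795699-104795998 (minus) and PIK3IP1, the downstream of its annotated starts, at chr22:31292439-31292738 (minus).
FOXO1: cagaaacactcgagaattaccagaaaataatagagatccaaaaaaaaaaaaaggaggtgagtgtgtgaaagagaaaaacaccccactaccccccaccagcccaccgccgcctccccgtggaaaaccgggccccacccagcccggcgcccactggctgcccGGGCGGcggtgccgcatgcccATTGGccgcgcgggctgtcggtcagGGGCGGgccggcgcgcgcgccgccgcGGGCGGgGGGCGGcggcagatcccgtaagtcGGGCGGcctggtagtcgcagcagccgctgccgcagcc
FOXO4: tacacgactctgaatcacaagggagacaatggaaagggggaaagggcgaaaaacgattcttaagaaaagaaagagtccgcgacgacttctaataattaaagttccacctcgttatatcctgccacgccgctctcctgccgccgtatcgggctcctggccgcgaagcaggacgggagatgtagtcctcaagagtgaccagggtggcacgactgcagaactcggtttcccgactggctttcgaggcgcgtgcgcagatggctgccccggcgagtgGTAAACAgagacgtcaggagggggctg
AKT1: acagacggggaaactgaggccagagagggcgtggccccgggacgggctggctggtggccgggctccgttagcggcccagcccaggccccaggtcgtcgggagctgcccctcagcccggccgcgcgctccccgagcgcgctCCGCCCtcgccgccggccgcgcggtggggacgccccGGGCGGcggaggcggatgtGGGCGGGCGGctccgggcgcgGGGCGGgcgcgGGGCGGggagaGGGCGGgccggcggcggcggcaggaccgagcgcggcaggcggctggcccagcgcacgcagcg
PIK3IP1: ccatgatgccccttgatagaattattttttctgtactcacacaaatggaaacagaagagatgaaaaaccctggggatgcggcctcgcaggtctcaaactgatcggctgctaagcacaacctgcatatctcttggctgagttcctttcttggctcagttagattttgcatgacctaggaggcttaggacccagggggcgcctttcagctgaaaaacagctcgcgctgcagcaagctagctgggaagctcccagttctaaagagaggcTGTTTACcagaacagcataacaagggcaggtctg
The forkhead site GTAAACA was found in 2 of 19 annotated promoters of the 8 genes, 23 bases after the FOXO4 start and 16 bases after the PIK3IP1 start, and in 3.42% of all 35116 promoters. In both places its reverse strand contains TGTTT, a shorter forkhead core that 44.4% of all promoters hold. The FOXO1 promoter held 5 GC boxes and 1 CCAAT box, and the AKT1 promoter shown, 1 of 2 annotated, 7 GC boxes, of which a pair overlaps, against at least 1 GC box in 45.0% and a CCAAT box in 34.6% of all promoters. G and C made up 68.0% of the FOXO1 promoter, 83.3% for AKT1, 56.3% for FOXO4 and 49.7% for PIK3IP1, with a median of 58.7% over all promoters. The other AKT1 promoter held 1 GC box, and G and C made up 56.7% of it. These are matches of letters in 1 window and show no binding.

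In untreated Raji cells, transcripts for the PI3K catalytic subunit PIK3CD were the most abundant of the 8, and FOXO transcripts were low. By mean FPKM the order in Raji DMSO was PIK3CD (59.3), AKT1 (20.4), AKT2 (14.1), FOXO1 (9.88), PIK3IP1 (7.49), PIK3R1 (5.15), FOXO4 (3.76) and FOXO3 (3.07), and no neighbours overlapped between libraries. In Raji-4RH DMSO the order began with PIK3CD (16.6), AKT1 (13.2), AKT2 (11.7) and FOXO1 (10.9), and FOXO3 (5.62) and PIK3IP1 (5.42) could not be separated. With chidamide FOXO1 came second in Raji (16.5) behind PIK3CD (66.9), and AKT2 and AKT1 overlapped. In Raji-4RH chidamide FOXO1 (23.9) stood first, ahead of PIK3CD (16.5), and AKT1 and PIK3R1 overlapped at the low end. FPKM divides by the joined length of all annotated exons (15035 bases for AKT2 and 11162 for AKT1, against 3447 for FOXO4), so genes with many annotated transcripts read lower than the transcript in use would.

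**Figure D1:**
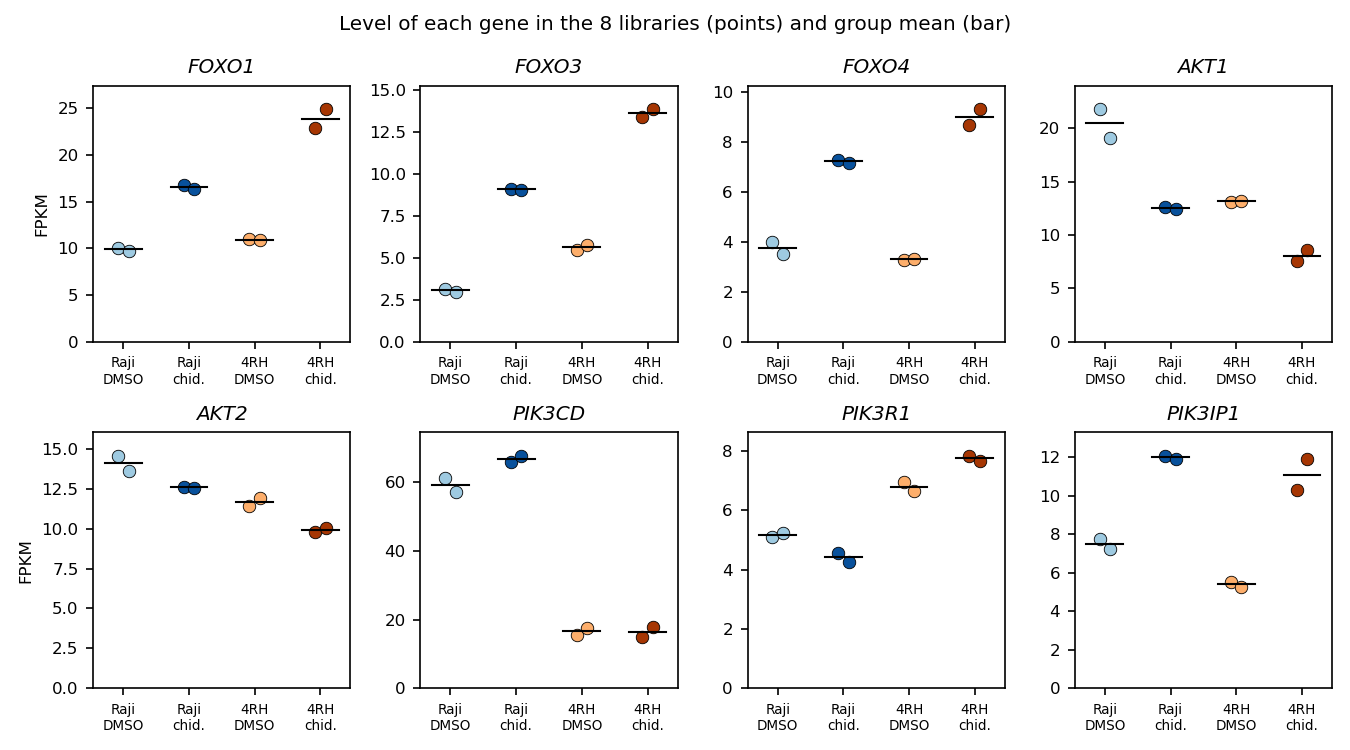
FPKM of the 8 genes (y axis, linear and starting at 0) in Raji and Raji-4RH (4RH) with DMSO or chidamide (chid.), with 1 point per library and a bar at the mean of 2. The 3 FOXO genes and PIK3IP1 are higher with chidamide in both lines, AKT1 is lower, and PIK3CD separates the lines.

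First, chidamide was compared with DMSO in each line, which asks how the drug changed the FOXO and PI3K-AKT transcripts in the resistant and the parental cells. FOXO1, the main FOXO factor of germinal centre B cells, measured 10.0 and 9.74 FPKM in untreated Raji, 16.7 and 16.3 in treated Raji, 10.98 and 10.8 in untreated Raji-4RH and 22.9 and 24.9 in treated Raji-4RH. Both treated groups lay above all 4 DMSO libraries, and the Raji-4RH treated pair lay highest. FOXO1 rose 2.19-fold in Raji-4RH (log2 fold change 1.06, SE 0.056, adjusted p = 7.3e-07) and 1.67-fold in Raji (log2 fold change 0.69, SE 0.056, adjusted p = 2.1e-05). Fold changes are ratios of mean FPKM, while tests and log2 fold changes were made on log2(FPKM + 1), which understates changes of genes with low values. Adjusted p-values are from limma, with Benjamini-Hochberg adjustment over all genes tested. Of the FOXO1 exon bases, 4.32% overlap LINC00598, a noncoding gene on the same strand, so strand cannot tell the reads of these bases apart.

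FOXO3, which shares targets with FOXO1 and is linked to quiescence and cell death, measured 3.15 and 2.98 FPKM in untreated Raji, 9.13 and 9.07 in treated Raji, 5.48 and 5.76 in untreated Raji-4RH and 13.4 and 13.9 in treated Raji-4RH. The 4 groups did not overlap, and each line rose from its own starting level. FOXO3 rose 2.96-fold in Raji (log2 fold change 1.31, SE 0.055, adjusted p = 6.6e-07) and 2.42-fold in Raji-4RH (log2 fold change 1.14, SE 0.055, adjusted p = 4.5e-07). FOXO4, the X-linked member of the family, measured 4.01 and 3.51 FPKM in untreated Raji, 7.28 and 7.17 in treated Raji, 3.28 and 3.31 in untreated Raji-4RH and 8.69 and 9.31 in treated Raji-4RH. It stood lowest in Raji-4RH DMSO and highest in the same line with chidamide, and rose 2.73-fold in Raji-4RH (log2 fold change 1.22, SE 0.067, adjusted p = 8.4e-07) and 1.92-fold in Raji (log2 fold change 0.79, SE 0.067, adjusted p = 2.5e-05). FOXO4 rested on the fewest reads of the 8 genes, 212 to 591 per library. Of the words of 75 bases in FOXO3 transcripts, 13.2% also occur in FOXO3B, a near-identical copy, and 8.06% in AC026271.3, so FOXO3 levels are uncertain where the counting split or dropped such reads.

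AKT1, the broadly expressed AKT kinase, moved the opposite way. It measured 21.8 and 19.1 FPKM in untreated Raji, 12.6 and 12.5 in treated Raji, 13.1 and 13.2 in untreated Raji-4RH and 7.54 and 8.58 in treated Raji-4RH. Raji with chidamide came down just below the level of untreated Raji-4RH, and Raji-4RH with chidamide lay lowest. AKT1 fell to 0.612 of its DMSO level in Raji-4RH (log2 fold change -0.65, SE 0.077, adjusted p = 7.8e-05) and to 0.613 in Raji (log2 fold change -0.66, SE 0.077, adjusted p = 1.3e-04). AKT2, which is best known for its part in insulin signalling, measured 14.6 and 13.6 FPKM in untreated Raji, 12.6 and 12.6 in treated Raji, 11.4 and 11.9 in untreated Raji-4RH and 9.77 and 10.0 in treated Raji-4RH. Its groups did not overlap, but the steps were small: it fell to 0.848 of its DMSO level in Raji-4RH (log2 fold change -0.22, SE 0.055, adjusted p = 0.00647) and to 0.893 in Raji (log2 fold change -0.15, SE 0.055, adjusted p = 0.0426). The AKT2 call in Raji was lost without Raji DMSO replicate 1 (adjusted p = 0.207), without Raji chidamide replicate 1 (0.139) or 2 (0.158), without Raji-4RH DMSO replicate 1 or 2 (0.0656 each) and with quantile normalization (0.124), within a range of adjusted p over all alternatives of 0.0160 to 0.207. In Raji-4RH it was lost without Raji-4RH DMSO replicate 2 (adjusted p = 0.0530, range 0.00130 to 0.0530). A share of 5.94% of the AKT1 exon bases overlaps the antisense gene AL583722.2, whose reads cannot be told apart from those of AKT1 unless the counting used strand, which is not given in the sources used here.

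PIK3CD encodes p110 delta, the catalytic PI3K subunit typical of lymphocytes, and PIK3R1 encodes p85 alpha, the regulatory subunit that holds and stabilizes it. PIK3CD measured 61.3 and 57.2 FPKM in untreated Raji, 66.0 and 67.8 in treated Raji, 15.6 and 17.7 in untreated Raji-4RH and 15.1 and 17.8 in treated Raji-4RH. Treated and untreated Raji-4RH libraries overlapped, and all 4 lay far below all 4 Raji libraries. No change of PIK3CD with chidamide was called in Raji-4RH (log2 fold change -0.017, SE 0.088, adjusted p = 0.874, 95% interval -0.22 to 0.19) or in Raji (log2 fold change 0.17, SE 0.088, adjusted p = 0.124, 95% interval -0.029 to 0.38). In Raji the higher level was called with quantile normalization (log2 fold change 0.30, adjusted p = 0.0150), in a fit of the Raji libraries only (0.0264) and without Raji-4RH chidamide replicate 1 or 2 (0.0385 each), within a range of 0.0150 to 0.405. In Raji-4RH the sign of this small value depended on the setting.

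PIK3R1 measured 5.09 and 5.21 FPKM in untreated Raji, 4.56 and 4.26 in treated Raji, 6.94 and 6.63 in untreated Raji-4RH and 7.83 and 7.65 in treated Raji-4RH. It stood higher in every Raji-4RH library than in every Raji library, and chidamide widened that gap. PIK3R1 fell to 0.856 of its DMSO level in Raji (log2 fold change -0.19, SE 0.057, adjusted p = 0.0211) and rose 1.14-fold in Raji-4RH (log2 fold change 0.17, SE 0.057, adjusted p = 0.0254). The fall was lost without Raji DMSO replicate 1 (adjusted p = 0.0537) or 2 (0.0859) or without Raji chidamide replicate 2 (0.147), within a range of 0.00631 to 0.147. The rise was lost with quantile normalization (0.143), with median-centred libraries (0.180), in a fit of the Raji-4RH libraries only (0.0632), and without Raji-4RH DMSO replicate 2 (0.134) or chidamide replicate 1 (0.0753), within a range of 0.0122 to 0.180.

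PIK3IP1, a membrane protein that binds the p110 subunit and damps PI3K activity, measured 7.76 and 7.23 FPKM in untreated Raji, 12.1 and 11.9 in treated Raji, 5.55 and 5.28 in untreated Raji-4RH and 10.3 and 11.9 in treated Raji-4RH. All 4 treated libraries lay above all 4 untreated ones, and the treated groups of the lines overlapped. It rose 2.05-fold in Raji-4RH (log2 fold change 0.91, SE 0.074, adjusted p = 7.4e-06) and 1.60-fold in Raji (log2 fold change 0.61, SE 0.074, adjusted p = 1.6e-04).

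Of the 8 genes, 7 were called in Raji-4RH (5 rose, 2 fell) and 7 in Raji (4 rose and 3 fell, or 5 and 2 with quantile normalization), while 74.9% and 60.0% of all genes tested were called in these comparisons. The libraries of the groups did not overlap for 7 of the 8 genes in Raji-4RH and for 8 in Raji, and for 86.5% and 82.8% of all genes. Most genes tested were thus called with chidamide in both lines. Over all genes, 43.3% rose and 31.6% fell in Raji-4RH, and 31.5% rose and 28.5% fell in Raji. The median over all tested genes in Raji-4RH was 0.093, and quantile normalization moved it to -0.022 and turned 4642 rises and 3380 falls into 3718 rises and 4057 falls. The rises of FOXO1, FOXO3, FOXO4 and PIK3IP1 and the fall of AKT1 were called under both scaling alternatives (quantile normalization and median-centred libraries). For a single gene, the exact permutation test of 2 libraries against 2 cannot give a two-sided p below 0.333. In bulk RNA, fewer cells of one state and less RNA per cell cannot be told apart.

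**Figure D2:**
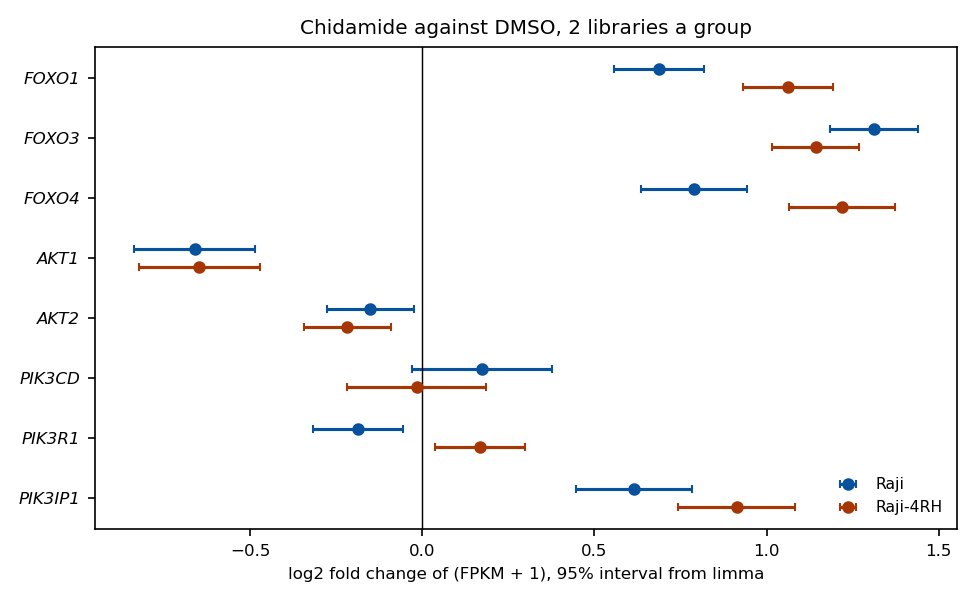
Log2 fold change of (FPKM + 1), chidamide against DMSO (x axis), of each gene in Raji (blue) and Raji-4RH (brown), as points with 95% intervals from limma over 2 libraries a group. FOXO1, FOXO4 and PIK3IP1 lie further right in Raji-4RH, AKT1 lies at -0.65 and -0.66 in the 2 lines, and PIK3R1 lies on opposite sides of 0.

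The ratio of FOXO to AKT transcripts was higher with treatment in both lines. FOXO1, FOXO3 and FOXO4 summed to 0.473 and 0.496 times the sum of AKT1 and AKT2 in untreated Raji, 1.31 and 1.30 times in treated Raji, 0.804 and 0.793 times in untreated Raji-4RH and 2.60 and 2.58 times in treated Raji-4RH. Which of the sums is larger depends on the exon lengths that FPKM divides by, which are longer for both AKT genes than for the 3 FOXO genes. In reads, with no division by length, the ratio was 0.218 and 0.229 in untreated Raji, 0.605 and 0.599 in treated Raji, 0.384 and 0.378 in untreated Raji-4RH and 1.19 and 1.19 in treated Raji-4RH, so it stayed below 1 in treated Raji. FOXO1 made up 58.3% and 60.0% of the FOXO sum in Raji DMSO and between 50.1% and 51.8% in the 4 treated libraries. FOXO3 made up 18.3% and 18.4% in Raji DMSO and between 27.5% and 29.8% in the other 6 libraries. In FPKM, AKT1 stood above AKT2 in untreated cells (ratios 1.49 and 1.40 in Raji, 1.15 and 1.11 in Raji-4RH), about level with it in Raji chidamide (0.999 and 0.994) and below it in Raji-4RH chidamide (0.771 and 0.854). These sums and ratios were formed with the levels known and are given without a test.

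**Figure D3:**
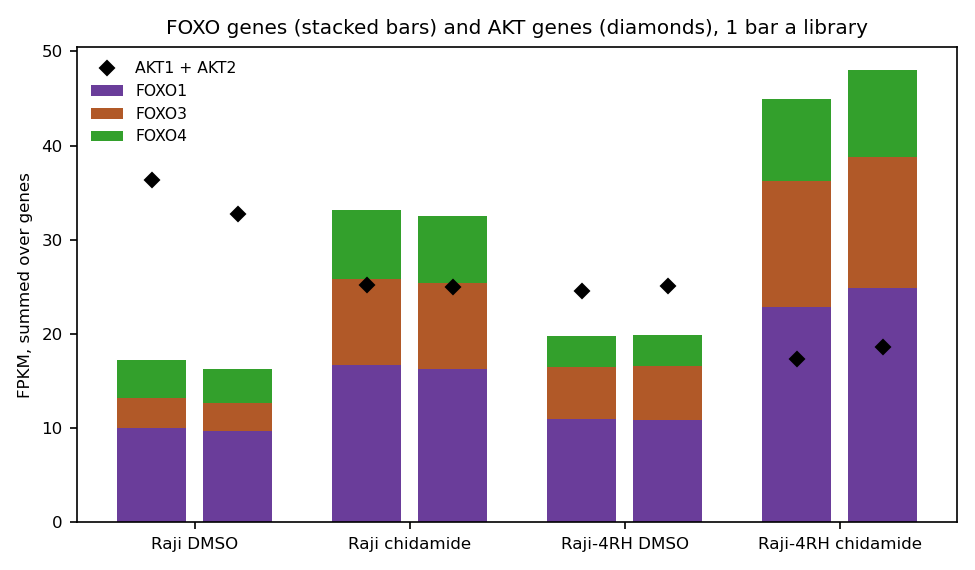
Summed FPKM (y axis, from 0) of FOXO1, FOXO3 and FOXO4 as stacked bars and of AKT1 and AKT2 as diamonds, 1 bar per library. On this scale, which depends on the exon lengths used, the bars stay below the diamonds in the 4 DMSO libraries and exceed them in the 4 chidamide libraries.

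The effects of chidamide in the lines were then set against each other. The difference of the effects (Raji-4RH minus Raji) was called for 4 of the 8 genes, each in the positive direction, with 48.8% of all genes called, 27.2% in that direction and 21.7% in the other. FOXO1 rose more in Raji-4RH (difference of log2 fold changes 0.37, SE 0.080, adjusted p = 0.00555), and so did FOXO4 (difference of log2 fold changes 0.43, SE 0.095, adjusted p = 0.00661) and PIK3IP1 (difference of log2 fold changes 0.30, SE 0.10, adjusted p = 0.0436). PIK3R1 differed as well (difference of log2 fold changes 0.35, SE 0.080, adjusted p = 0.00741), having moved in opposite directions in the lines. For FOXO3 the difference was -0.17 (95% interval -0.35 to 0.010, adjusted p = 0.106), for AKT1 0.013 (-0.24 to 0.26, adjusted p = 0.93), for AKT2 -0.066 (-0.24 to 0.11, adjusted p = 0.508) and for PIK3CD -0.19 (-0.48 to 0.097, adjusted p = 0.239), by limma, and none of these was called. The PIK3IP1 call was lost without filter (adjusted p = 0.0644) and on leaving out any library but Raji-4RH chidamide replicate 1 (0.0572 to 0.133), within a range of 0.00592 to 0.133. The FOXO3 difference was called with a pseudocount of 0.1 (-0.28, adjusted p = 0.0373) and with voom on recovered reads (-0.29, 0.0233), within a range of 0.0233 to 0.701, and the PIK3CD difference without Raji-4RH chidamide replicate 2 (-0.30, 0.0311; range 0.0311 to 0.583).

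Next, Raji-4RH was compared with Raji under the same treatment, which asks what distinguishes the resistant line. These comparisons share libraries with those above. PIK3CD differed most in size among the 8 genes: Raji-4RH had 0.281 of the Raji level in DMSO (log2 fold change -1.77, SE 0.088, adjusted p = 3.9e-07) and 0.246 in chidamide (log2 fold change -1.96, SE 0.088, adjusted p = 1.7e-07). PIK3R1 was 1.32-fold higher in Raji-4RH in DMSO (log2 fold change 0.34, SE 0.057, adjusted p = 7.0e-04) and 1.76-fold higher in chidamide (log2 fold change 0.69, SE 0.057, adjusted p = 6.4e-06). The ratio of PIK3CD to PIK3R1 transcripts was between 10.96 and 15.9 in the 4 Raji libraries and between 1.93 and 2.67 in the 4 Raji-4RH libraries.

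AKT1 stood at 0.644 of the Raji level in untreated Raji-4RH (log2 fold change -0.60, SE 0.077, adjusted p = 1.4e-04) and at 0.642 with chidamide (log2 fold change -0.58, SE 0.077, adjusted p = 1.3e-04). AKT2 was also lower, at 0.829 (log2 fold change -0.25, SE 0.055, adjusted p = 0.00314) and 0.787 (log2 fold change -0.32, SE 0.055, adjusted p = 7.0e-04). FOXO3 was 1.83-fold higher in untreated Raji-4RH (log2 fold change 0.70, SE 0.055, adjusted p = 6.6e-06) and 1.496-fold higher with chidamide (log2 fold change 0.53, SE 0.055, adjusted p = 2.9e-05). FOXO1 and FOXO4 were not called between untreated lines (log2 fold change 0.13, SE 0.056, adjusted p = 0.0651 for FOXO1 and log2 fold change -0.15, SE 0.067, adjusted p = 0.0774 for FOXO4). With chidamide both were higher in Raji-4RH, FOXO1 1.44-fold (log2 fold change 0.50, SE 0.056, adjusted p = 4.6e-05) and FOXO4 1.25-fold (log2 fold change 0.28, SE 0.067, adjusted p = 0.00442). PIK3IP1 was lower in untreated Raji-4RH, at 0.723 of the Raji level (log2 fold change -0.40, SE 0.074, adjusted p = 0.00112), and in chidamide its groups overlapped (log2 fold change -0.11, SE 0.074, adjusted p = 0.212).

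In DMSO 6 of the 8 genes were called (2 higher and 4 lower in Raji-4RH) beside 73.6% of all genes (41.2% higher and 32.4% lower), and in chidamide 7 (4 higher and 3 lower) beside 79.3% (44.3% higher and 35.0% lower). The groups did not overlap for all 8 genes in DMSO and for 7 in chidamide, and for 88.5% of all genes in each comparison. The lower FOXO4 level in untreated Raji-4RH was called with quantile normalization (log2 fold change -0.24, adjusted p = 0.00705), median-centred libraries (0.0253) and without Raji DMSO replicate 2 (0.0275), within a range of 0.00705 to 0.400. The higher FOXO1 level was called without Raji-4RH chidamide replicate 1 (0.0248) or 2 (0.0249), within a range of 6.6e-06 (rows as deposited, where the value belongs to another gene) to 0.203. In chidamide a lower PIK3IP1 level was called with median-centred libraries (log2 fold change -0.19, adjusted p = 0.0293) and without Raji-4RH chidamide replicate 2 (-0.20, 0.0217), within a range of 0.0217 to 0.901. All 5 B cell markers were also called lower in untreated Raji-4RH (median log2 fold change -0.58).

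**Figure D4:**
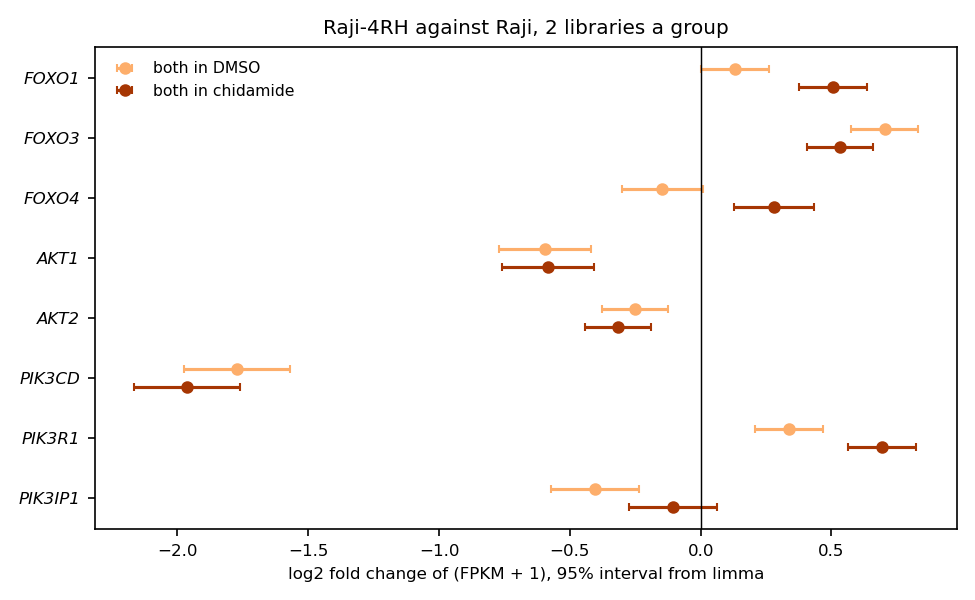
Log2 fold change of (FPKM + 1), Raji-4RH against Raji (x axis), with both lines in DMSO (light) or both in chidamide (dark), as points with 95% intervals from limma over 2 libraries a group. PIK3CD lies near -1.77 and -1.96, AKT1 and AKT2 lie left of 0 and FOXO3 and PIK3R1 right of it under both treatments.

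The FOXO pathway beyond these 8 genes was followed through lists of known genes. Of 34 known FOXO target genes, 33 were placed and 24 tested. The list was chosen with earlier results of these data known. In Raji-4RH 21 rose with chidamide and 2 fell, with a median log2 fold change of 0.80 against 0.093 over all genes. Of all genes there, 74.9% were called (43.3% rose and 31.6% fell). In Raji 16 rose and 3 fell, with a median of 0.60 against 0.017 over all genes, of which 60.0% were called (31.5% rose and 28.5% fell). Quantile normalization left 20 rises and 2 falls in Raji-4RH, and 16 rises and 5 falls in Raji. A gene of this list can respond to many factors besides FOXO, and 9 placed members were too low to test.

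SESN3, a sestrin that restrains mTORC1, measured 1.25 and 1.17 FPKM in untreated and 17.5 and 17.6 in treated Raji-4RH, against 2.71 and 2.91 and then 7.70 and 7.69 in Raji. It rose 14.5-fold in Raji-4RH (log2 fold change 3.07, SE 0.056, adjusted p = 2.1e-08) and 2.74-fold in Raji (log2 fold change 1.19), and the effects differed (difference of log2 fold changes 1.88, SE 0.079, adjusted p = 3.4e-06). CDKN1A, which encodes the cyclin-dependent kinase inhibitor p21, rose from 30.7 ± 2.71 to 165 ± 5.60 FPKM (SD, n = 2) in Raji-4RH (log2 fold change 2.39) and from 10.4 ± 0.390 to 51.5 ± 0.121 FPKM in Raji (2.20). GABARAPL1, an autophagy gene, rose 4.94-fold in Raji-4RH, from 3.04 to 15.0 FPKM (log2 fold change 1.98). In Raji it rose 7.55-fold, from a low level of 0.558 to 4.21 FPKM (log2 fold change 1.74). BBC3, which encodes the cell death protein PUMA, rose 3.00-fold in Raji. Against this direction, SOD2 (mitochondrial superoxide dismutase) fell to 0.652 of its DMSO level in Raji-4RH and 0.540 in Raji, IL7R (interleukin-7 receptor) to 0.611 and 0.764, and BCL6 (a germinal centre repressor) to 0.785 in Raji, while BCL6 rose 1.18-fold in Raji-4RH. The IL7R call in Raji was lost without Raji DMSO replicate 2 (adjusted p = 0.0562) or Raji chidamide replicate 2 (0.0577), within a range of 0.00237 to 0.0577.

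**Figure D5:**
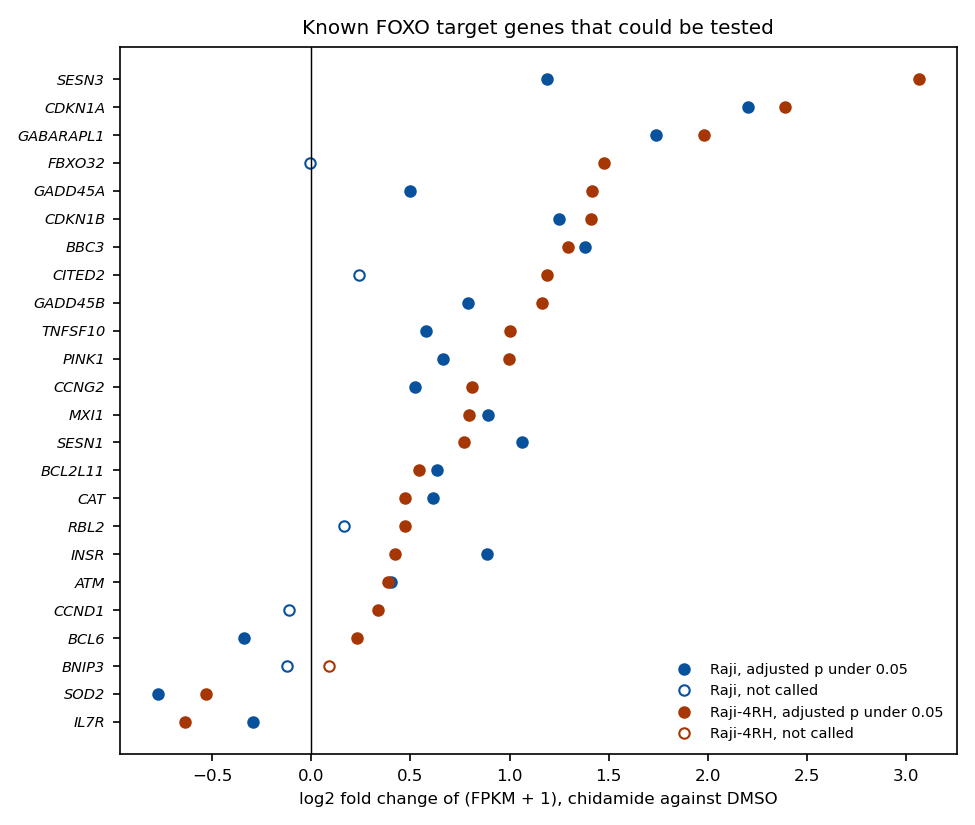
Log2 fold change of (FPKM + 1), chidamide against DMSO (x axis), of the 24 tested FOXO target genes in Raji (blue) and Raji-4RH (brown), with filled points for adjusted p under 0.05 and open points for the rest. Points to the right of 0 are higher with chidamide: 21 genes in Raji-4RH and 16 in Raji are called there.

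The difference of the effects was called for 11 of these 24 targets, 8 in the direction of Raji-4RH and 3 in that of Raji (10 and 0 with quantile normalization), with 48.8% of all genes called. Between untreated lines 10 targets were higher and 11 lower in Raji-4RH (median -0.16), with 73.6% of all genes called. BNIP3 (mitophagy), INSR (insulin receptor) and CDKN1A led the higher ones, at 18.5-fold, 6.04-fold and 2.95-fold. The BNIP3 ratio rests on a Raji level of 0.607 FPKM, below the 1 FPKM of the filter. BNIP3 passed that filter only through Raji-4RH, where it is high, so its place among the 10 higher targets lends them no support. CITED2 (a transcriptional coregulator) stood at 0.305 of the Raji level, GADD45A (a growth arrest and DNA damage gene) at 0.344 and CDKN1B, which encodes the cyclin-dependent kinase inhibitor p27, at 0.363. Whether the higher FOXO3 level of untreated Raji-4RH bears on these targets was not tested.

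Among 19 regulators of FOXO protein, 5 rose and 8 fell in Raji-4RH (median log2 fold change -0.14) and 3 rose and 10 fell in Raji (median -0.27), beside 74.9% and 60.0% of all genes called. In Raji-4RH quantile normalization turned the median to 0.085, and median-centred libraries gave 3 rises and 11 falls. SGK1, a kinase that phosphorylates FOXO proteins at the sites AKT uses, measured 2.12 and 2.13 FPKM in untreated Raji, 35.1 and 35.5 in treated Raji, 0.304 and 0.397 in untreated Raji-4RH and 3.89 and 4.36 in treated Raji-4RH. It rose in Raji (log2 fold change 3.54, SE 0.066, adjusted p = 1.9e-08) and in Raji-4RH (log2 fold change 1.92, SE 0.066, adjusted p = 9.8e-08), and under each treatment Raji-4RH stayed below Raji. SKP2, a ubiquitin ligase subunit that targets FOXO1, fell to 0.300 of its DMSO level in Raji-4RH and 0.496 in Raji. FOXM1, a forkhead factor of proliferation that competes with FOXO, fell to 0.231 and 0.564, and YWHAH, a 14-3-3 protein, to 0.360 and 0.581. Between untreated lines 8 of the 19 were higher in Raji-4RH, among them MDM2 (1.71-fold) and the deacetylase SIRT1 (1.40-fold), and 8 were lower, beside 41.2% and 32.4% of all genes.

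Upstream of AKT, 4 other PI3K subunits were tested out of 7. In Raji-4RH 2 of them rose and in Raji 3 rose, with medians of 0.17 and 0.44 against 0.093 and 0.017 over all genes, of which 74.9% and 60.0% were called. None fell, except that in Raji-4RH quantile normalization gave 2 rises and 2 falls and median-centred libraries 2 rises and 1 fall. PIK3CG, which encodes the catalytic subunit p110 gamma, rose 2.06-fold in Raji (log2 fold change 0.89, SE 0.061, adjusted p = 8.2e-06) and 1.25-fold in Raji-4RH (log2 fold change 0.28, SE 0.061, adjusted p = 0.00279). Of 8 adaptors and coactivators 7 were tested, of which 4 rose and 1 fell in Raji-4RH (74.9% of all genes called) and 5 rose and 1 fell in Raji (60.0%). Among them GAB2 lay at 0.449 and 0.491 FPKM in untreated Raji and 0.709 and 0.662 in untreated Raji-4RH. Its rises are included in the counts above, but GAB2 passed the filter of 1 FPKM only through the treated groups. They therefore lend no support to a rise of the list. The faller was TCL1A, a coactivator of AKT, which went to 0.578 of its DMSO level in Raji-4RH (log2 fold change -0.79, SE 0.085, adjusted p = 4.4e-05) and 0.762 in Raji (log2 fold change -0.39, SE 0.085, adjusted p = 0.00437). PIK3AP1, an adaptor of the antigen receptor, rose 1.86-fold in Raji, and was 1.29-fold higher in Raji-4RH in DMSO but at 0.670 of the Raji level in chidamide.

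All 10 phosphatases and other brakes were tested. In Raji-4RH 3 rose and 5 fell, and in Raji 3 rose and 2 fell, with medians of -0.30 and -0.086, beside 74.9% and 60.0% of all genes called. INPP4B lay at 0.233 and 0.168 FPKM in untreated and 1.08 and 1.07 in treated Raji, and lower in Raji-4RH. Its rise in Raji is included in the count above, but INPP4B passed the filter of 1 FPKM only through treated Raji. That rise therefore lends no support to a rise of the list. TSC1, part of the complex that restrains mTORC1, rose 2.12-fold in Raji-4RH, from 5.36 to 11.3 FPKM. In Raji it rose 1.17-fold, from 8.14 to 9.54 FPKM. That call in Raji was lost without Raji DMSO replicate 1 or 2 or Raji chidamide replicate 1. TRIB3, a pseudokinase that binds AKT, fell to 0.354 of its DMSO level in Raji-4RH. INPPL1 and INPP5D, which encode the lipid phosphatases SHIP2 and SHIP1, fell to 0.598 and 0.647 in Raji-4RH. Between untreated lines 3 of the 10 were higher and 3 lower in Raji-4RH (median -0.013), beside 73.6% of all genes called. DEPTOR, an mTOR inhibitor, and TRIB3 were 6.73-fold and 6.07-fold higher in untreated Raji-4RH. PHLPP1 and TSC1 stood at 0.545 and 0.658 of the Raji level there.

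Of 14 other AKT kinases, activators and substrates 12 were tested. In Raji-4RH 2 rose and 6 fell (median -0.26), and in Raji 4 rose and 4 fell (median -0.068; 2 and 5 with median-centred libraries), beside 74.9% and 60.0% of all genes called. MLST8, a subunit of both mTOR complexes, fell to 0.542 of its DMSO level in Raji-4RH and 0.563 in Raji, RPTOR, the mTORC1 scaffold, to 0.579 and 0.788, and GSK3B, a kinase that AKT inhibits, rose 1.40-fold in Raji-4RH. The RPTOR call in Raji was lost without Raji DMSO replicate 1 (adjusted p = 0.0581) or Raji chidamide replicate 1 (0.0553), within a range of 0.00237 to 0.0581. EIF4EBP1, which encodes the translation repressor 4E-BP1, had 1 and 1 reads in untreated and 6 and 1 in treated Raji, but 2671 and 3140 in untreated and 1218 and 1615 in treated Raji-4RH. Per total reads the untreated lines differed 2901-fold, with an exact 95% counting interval of 803 to 23963. That interval is for reads pooled within each group and leaves out the spread between libraries. EIF4EBP1 passed the filter of 1 FPKM only through Raji-4RH, so its difference between the lines is given as a description and not as a test. Within Raji-4RH it fell to 0.601 of its DMSO level (log2 fold change -0.73, SE 0.086, adjusted p = 8.0e-05), a call that a pseudocount of 0.1 removed (adjusted p = 0.0872, range 1.0e-06 to 0.0872).

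Genes with the pattern most like each of FOXO1, AKT1 and PIK3IP1 were ranked by the root mean square difference of log2(FPKM + 1), centred on each gene, over the 8 libraries and 6614 genes. XPR1 (0.064), TPCN1 (0.069), DLGAP1 (0.071) and DOCK9 (0.075) were closest to FOXO1, and FOXO4 ranked 43rd and FOXO3 330th. PAXX (0.046), MAP4K1 (0.061), MIGA2 (0.065) and TADA2B (0.065) were closest to AKT1, and AKT2 ranked 959th. KLHL36 (0.058), PEX6 (0.070), RB1 (0.071) and IGF2R (0.080) were closest to PIK3IP1.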

How the data were processed

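RNA-seq libraries of Raji and Raji-4RH cells with DMSO or chidamide were analyzed, 2 per group in 4 groups. The authors deposited their expression values as FPKM in a single table. The submitters' processing notes name HISAT2 2.0.5, SAMtools 1.7, HTSeq 0.9.1, DESeq2 1.22.2 and GRCh38, and the annotation is not given in the sources used here. FPKM times gene length and library total gave whole reads for 100% of the non-zero values (within 0.02 read). The library totals are reached by summing the first 63305 of the 63967 rows, and the last 662 rows repeat the first 662. Values stand up to 14 rows below their labels. Each of 18143 labels was given the values of its own row by fixed shifts that an earlier analysis had found, rescaled by gene length. From 90.7% to 93.2% of a library's reads were placed in this way. At their own label rows PIK3R1 and PIK3CD are too low to test.

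Differences were tested with limma 3.58.1 (trend) in R 4.3.3 on log2(FPKM + 1) in 1 fit over the 8 libraries, for the 10710 genes that reached 1 FPKM in 2 or more libraries. A call required an adjusted p-value (Benjamini-Hochberg, over all genes tested) below 0.05. The fit was also run on simulated reads with a fixed spread that was not estimated from these libraries. That run checks the code and not the calls. The members and gene lists were chosen with earlier results of these data known. Some genes of the lists are not reported here and were left out of the list counts. From each list and comparison, up to 3 rises and 3 falls could be named, by size of the log2 fold change, provided they were called, averaged 5 FPKM or more and had groups without overlap. Values of SESN3 in Raji were added to its Raji-4RH values, and the BCL6 change in Raji-4RH was added to its change in Raji. The alternatives changed the scaling (quantile normalization, median-centred libraries), the filter (none, or a mean of 1 FPKM or more), the pseudocount (0.1), the model (no trend, a replicate block, the compared libraries alone, voom on the recovered reads), the threshold (a log2 fold change of 1 or more) and the placing (rows as deposited), or left out each library. A crossed replicate block was added after the data were seen. Gene positions are those of GENCODE release 29. Python 3.11.15 with pandas 2.3.3, numpy 2.4.6, scipy 1.17.1 and matplotlib 3.10.9 was used.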

Additional observations from a re-analysis of the deposited data

Results flagged for a closer look

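The effect of chidamide differed between the lines by limma's test of the difference for 4 of the 8 genes. FOXO1 rose more in Raji-4RH, with a difference of log2 fold changes of 0.37, and FOXO4 rose more there by 0.43. PIK3R1 rose in Raji-4RH and fell in Raji, a difference of 0.35, though both calls within a line were lost under several alternatives. PIK3IP1 rose more in Raji-4RH by 0.30, and this call was lost on leaving out 7 of the 8 libraries. With 48.8% of all genes called in this comparison, such a difference was common among the genes tested.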

How the results depend on the processing

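The directions of FOXO1, FOXO3, FOXO4, AKT1 and PIK3IP1 with chidamide were the same in both lines under all alternatives except rows as deposited, where AKT1 in Raji was 0.16. Rows as deposited also turned AKT1 between untreated lines (0.12) and in the difference of effects (-0.32), FOXO1 in the difference (-0.26), between untreated lines (-0.62) and in chidamide (-0.88), and FOXO4 between untreated lines (0.24), because another gene's values then stand beside the label. Values that were not called turned sign for PIK3CD in Raji-4RH (0.13 with quantile normalization, 0.070 without Raji-4RH DMSO replicate 2, 0.097 without Raji-4RH chidamide replicate 1, from -0.13 to 0.097 on leaving out 1 library), for the FOXO3 difference (0.039 with quantile normalization) and for the AKT1 difference (-0.073 with quantile normalization, -0.022 with median-centred libraries, -0.0063 with a pseudocount of 0.1, -0.0047 with voom, -0.076 without Raji DMSO replicate 1 and -0.069 without Raji-4RH chidamide replicate 2, from -0.076 to 0.10 on leaving out 1 library). The cause was not tested. A log2 fold change of at least 1 left 1620 genes and 3 of the 8 members in Raji-4RH, 560 and 1 in Raji, 676 and 0 in the difference, 1703 and 1 between untreated lines and 2228 and 1 in chidamide, since it is a stricter rule. Leaving out 1 library, where the lone library of its group is assumed to vary like the other groups, gave 7168 to 8087 genes called in Raji-4RH, 5128 to 7115 in Raji, 4044 to 6042 in the difference, 6960 to 8438 between untreated lines and 7707 to 8583 in chidamide, and 5 to 7, 5 to 8, 3 to 4, 6 to 7 and 7 to 8 members. The labels do not say whether the replicate numbers pair the libraries. Deviations of same-numbered libraries correlated across genes at -0.091 in Raji, 0.17 in Raji-4RH, -0.16 in DMSO and 0.0061 in chidamide. With 2 libraries a group, these values cannot settle the pairing. With the replicate block 8031, 6317, 5102, 7831 and 8468 genes were called, PIK3R1 in Raji-4RH (adjusted p = 0.0528), AKT2 in Raji (0.0730) and the PIK3IP1 difference (0.0557) were not, and PIK3CD in Raji was (0.0480). With the pairing crossed, 7791 genes were called between untreated lines. FOXO4 rested on 212 reads in its lowest library, so its values have the widest counting error of the 8.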
